A study of Solanum lycopersicum with 18 samples.

Results

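Red ripe fruit of the tomato varieties San Marzano (SM) and Heinz (H), both grown in the field at Acerra, was compared by RNA-Seq, with 3 libraries of each variety. These 6 libraries were taken from a series of 18, in which H, SM and the local variety Vesuviano (RSV) were grown at Acerra and at Sarno, also with 3 libraries per variety and location. H is the variety whose genome is the tomato reference, and SM is a local variety with elongated fruit from Campania in southern Italy, where both locations lie. The labels name no treatment or transgene, and the groups were set apart by variety only. Fruit of a variety was pooled within each plot and divided into aliquots, and the methods leave unsaid whether a group's 3 libraries stand for 3 plots or for portions of the same pool. The p-values given here therefore measure the spread between these libraries, which may be technical in part. The libraries are called H1 to H3 and SM1 to SM3 after the replicate numbers of the labels.

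Tomato fruit ripening is driven by ethylene, which is made from S-adenosylmethionine by 1-aminocyclopropane-1-carboxylate synthase (ACS) and then by 1-aminocyclopropane-1-carboxylate oxidase. While the fruit reddens, chloroplasts turn into chromoplasts, and the wall is loosened by pectinases, cellulases, expansins and xyloglucan endotransglucosylase/hydrolases (XTHs), which cut and rejoin the xyloglucan chains that tether cellulose. The comparison asks which genes differed in level between the varieties in ripe fruit from the same location.

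Expression was available as FPKM, fragments scaled by transcript length and by the mapped total, for 35566 loci in H and 35773 in SM. The H reads had been aligned to the reference genome and the SM reads to the assembly of SM, in separate runs, so a difference of variety cannot be told apart from a difference of assembly or run. A gene was compared where its Solyc identifier stood alone at 1 locus in each file, which held for 30236 genes. Of these, 14097 averaged 0.5 FPKM or more across both varieties and were tested, and 16139 were below this minimum. Differences were tested with limma on log2(FPKM + 0.5), two-sided, and a gene was called where the Benjamini-Hochberg adjusted p was under 0.05. Log2 fold changes are given as SM minus H, so values above 0 are higher in SM, and on this scale the change of genes with low FPKM is understated.

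The summed FPKM lay between 1129710 and 1168360 in the H libraries and between 1039740 and 1329250 in the SM libraries. SM2 stood apart, because a single locus, that of Solyc06g024340, held 26.0% of its FPKM, against 4.18% to 5.92% for the leading locus of each of the other 5 libraries. The read depth is not part of the values, though the study lists fragments and mapped shares per sample. The lowest mapped share listed for any sample is that of San Marzano sample 2 at Acerra. The steps between low values gave depths relative to H1 of 0.86 for H2, 1.51 for H3, 0.83 for SM1, 0.69 for SM2 and 0.93 for SM3, as estimates from the most frequent ratio among 334 to 573 low genes. Over the genes tested, log2 values correlated with r of 0.974 to 0.985 between libraries of the same variety and 0.920 to 0.938 between varieties, as a description across genes, which are not independent replicates. Of the 3 listed genes of chlorophyll binding and the photosystems, 2 stayed between 0 and 0.116 FPKM in all 6 libraries, and the third, Solyc06g060340, was higher in SM and is described below. Markers that define ripe fruit were not available by identifier and were not checked.

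SM and H differed in 2979 of the 14097 genes tested (21.1%). Of these, 1207 were higher in SM (8.56% of the genes tested) and 1772 were higher in H (12.6%). The differences were mostly moderate, with a median fold of 1.76 among the genes higher in SM and 1.63 among those higher in H. A log2 fold change of at least 1 was reached by 454 genes higher in SM and 551 higher in H, and one of at least 3 by 55 and 82 genes. The 3 libraries of each variety did not overlap in 5985 genes (42.5%), which included 2977 of the 2979 called. With 3 libraries against 3, an exact two-sided permutation test of a single gene cannot give a p below 0.1.

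**Figure D1:**
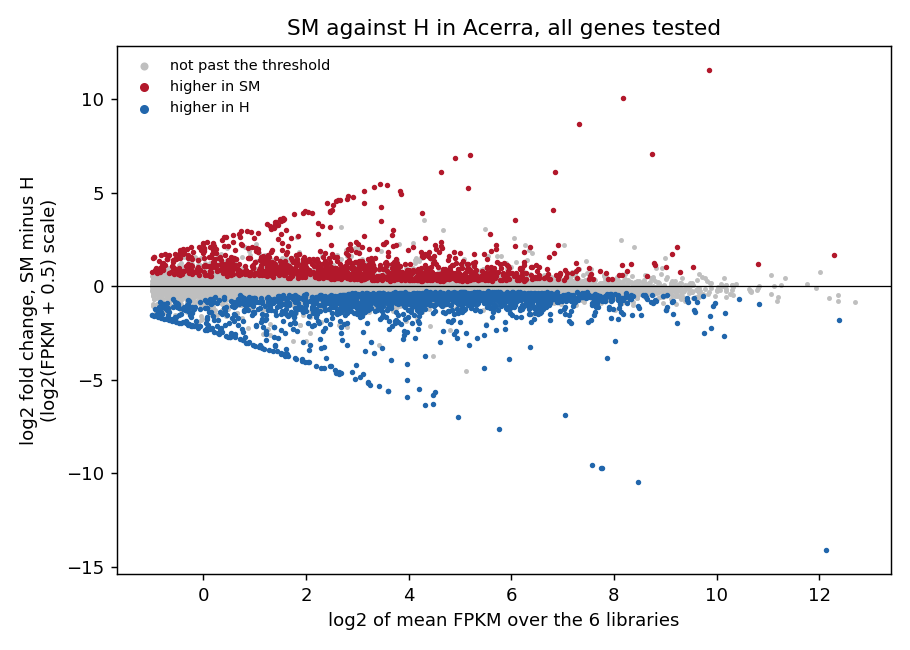
Log2 fold change of SM against H in Acerra for each of the 14097 genes tested, against the log2 of the mean FPKM over the 6 libraries. Red points mark the 1207 genes higher in SM and blue points the 1772 higher in H, and the points on the straight outer edges are genes at or near 0 in all libraries of 1 variety.

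The median log2 fold change over all genes was -0.06, a small shift toward H. After the libraries were rescaled by their median ratio, this median was -0.00 and 2981 genes were called, of which 1434 were higher in SM and 1547 higher in H. The rescaling kept 2749 calls, all in the same direction, while 228 genes were called only as deposited and 231 only after rescaling. The share of calls higher in SM was 40.5% as deposited and 48.1% after rescaling, so the excess of genes higher in H was smaller after rescaling. The number of calls rested on the full set of libraries. It fell to 1396 without H2, 1621 without SM3, 1671 without SM1 and 1735 without H1, and was 2028 without SM2 and 2529 without H3, while 1125 genes were called in all 6 of these fits.

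The balance between the varieties changed with the level of the gene. Among the 2839 genes with a mean of 1 to 5 FPKM, 367 were higher in SM and 308 higher in H. Among the 4511 genes between 20 and 100 FPKM, 309 were higher in SM and 646 higher in H. Among the 1410 genes at 100 FPKM or more, 52 were higher in SM and 217 higher in H, and the median log2 fold change was -0.17. Rescaling gave 70 and 202 genes in this highest class and 400 and 278 in the class of 1 to 5 FPKM, so the abundant genes were more often called higher in H under both scalings.

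**Figure D2:**
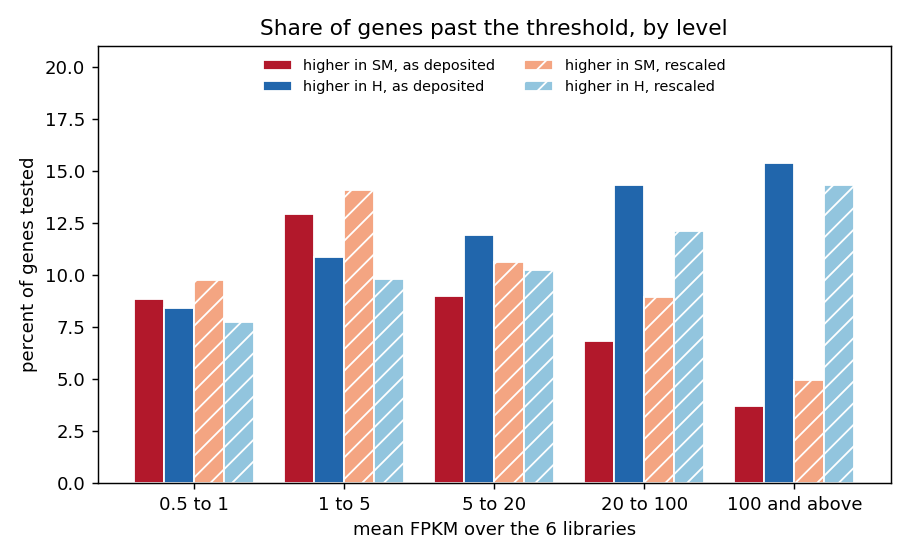
Percent of the genes tested that were called higher in SM (red) or higher in H (blue) in 5 classes of mean FPKM, as deposited (full colour) and after rescaling by the median ratio (pale, hatched). In the class of 100 FPKM and above, the bars for H stand above those for SM under both scalings.

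Locus spans also differed between the files. Of the 3252 genes whose locus had the same length in H and SM, 20.1% were called, against 30.6% of the 1231 genes whose locus lengths differed by more than 1.5 times. The part of this in the calls was not tested gene by gene, and locus lengths are given for the genes below where they differed by more than 1.5 times. When only genes within 5% in locus length were fitted, 2170 of 11337 were called.

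To describe functions, 151 genes that the study describes by name were sorted into 21 lists. The study had chosen them with these same libraries in hand, so their counts are not independent evidence. Of the 151 genes, 92 were tested, 42 were below the minimum of 0.5 FPKM and 17 could not be matched between the files. In SM, 9 of the 92 were higher and 12 lower than in H, and 71 were not called. This share of 22.8% lies near the 21.1% of all genes. The median log2 fold change of the listed genes was -0.46, against -0.06 over all genes tested. A value above 0 was found in 31 of the 92, against 6154 of the 14097 genes tested.

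**Figure D3:**
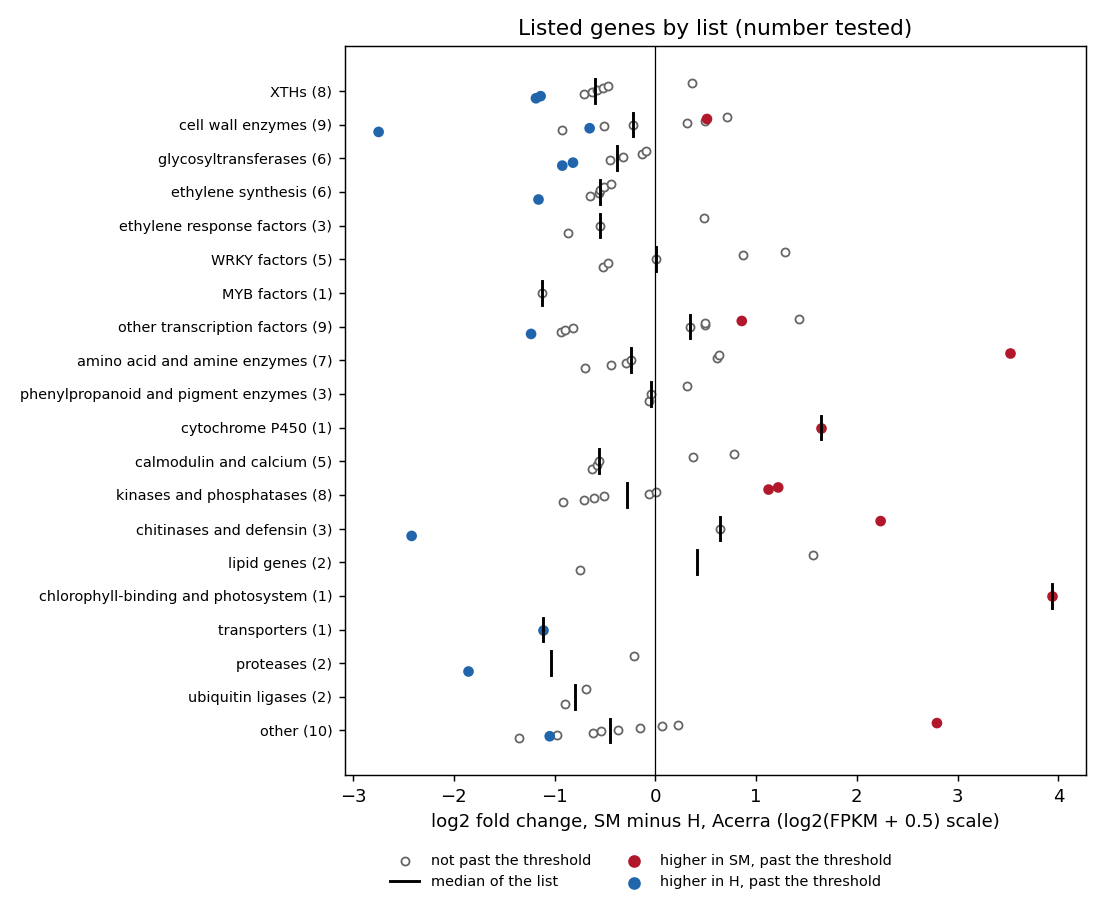
Log2 fold change of SM against H in Acerra for the 92 listed genes tested, in rows by list with the number tested in parentheses. Filled points are called genes (red higher in SM, blue higher in H), open points are not called, and the black bar is the median of the list, which was below 0 for the XTHs and for ethylene synthesis.

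The lists of cell wall enzymes and XTHs held 5 called genes, described one by one here. Endoglucanase 1 (Solyc09g010210), a cellulase-type enzyme that cleaves glucan chains, was located in the H file on chromosome 9 from 3596590 to 3602048 of build SL2.40. It reached 71.2 FPKM in H1, 92.8 in H2 and 48.6 in H3, against 11.6 in SM1, 9.14 in SM2 and 8.84 in SM3. All H libraries were thus far above all SM libraries, and the means were 70.9 ± 22.1 and 9.85 ± 1.5 FPKM (SD, n = 3). The log2 fold change was -2.75 (SE 0.23, adjusted p = 0.000639), and the gene remained called without each library in turn, with adjusted p up to 0.00538. RSV at Acerra had a mean of 36.9 FPKM.

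Of 9 XTH genes, 8 were tested, 2 were lower in SM and 6 were not called, a share of 25% that lies near the 21.1% of all genes. The median log2 fold change of this list was -0.60, and 7 of the 8 values were below 0. Over the 14097 genes tested, 6154 values were above 0. Among genes at 100 FPKM or more, a level that several of these XTHs reached, the median was -0.17. The 8 values are not independent, since the study describes the neighbouring chromosome 3 genes as having several copies of high similarity. Solyc12g011030 (chromosome 12, 3892611 to 3893717) was at 88.1, 76.7 and 138 FPKM in H1 to H3 and at 40.5, 39.0 and 49.4 FPKM in SM1 to SM3. All SM libraries were below all H libraries, with a log2 fold change of -1.18 (SE 0.22, adjusted p = 0.0139). Solyc12g017240 (chromosome 12, 6421904 to 6427791) was the most abundant XTH, at 344, 599 and 540 FPKM in H and 164, 242 and 262 FPKM in SM. Its log2 fold change was -1.14 (SE 0.26, adjusted p = 0.0266), and the call was lost without H2, H3, SM1 or SM2, with adjusted p between 0.0569 and 0.0852. In the fit of all 18 libraries neither of these XTHs was called, with adjusted p of 0.0723 for Solyc12g011030 and 0.188 for Solyc12g017240.

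The 4 XTH genes that neighbour each other on chromosome 3 were not called. Solyc03g093080 was at 162, 268 and 263 FPKM in H and at 105, 186 and 197 FPKM in SM, and its log2 fold change was -0.52 (SE 0.30). Solyc03g093130 was at 169, 347 and 361 FPKM in H and at 122.9, 195 and 201 FPKM in SM, with a log2 fold change of -0.71 (SE 0.33, adjusted p = 0.173). In this cluster H1 was the lowest H library and SM1 the lowest SM library for every gene, and the groups overlapped. The XTH Solyc07g055990 had values of 22.6, 19.8 and 25.7 FPKM in H and 17.5, 36.4 and 38.6 FPKM in SM, with a log2 fold change of 0.36 (SE 0.29, adjusted p = 0.417, and 0.0238 without SM1).

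Among the 9 other cell wall enzymes, all of them tested, 1 was higher in SM, 2 were lower and 6 were not called, against 21.1% called over all genes. Glucan synthase like 3 (Solyc01g006370), of the family that makes callose, was at 5.46, 5.41 and 6.19 FPKM in H and at 8.22, 8.81 and 7.93 FPKM in SM. The groups did not overlap, and the log2 fold change was 0.51 (SE 0.11, adjusted p = 0.0197). The call held only without H3, since the adjusted p lay between 0.0520 and 0.0673 without H1, H2, SM1, SM2 or SM3. The pollen allergen Phl p 11 gene (Solyc04g054810), named after a grass pollen protein, was the most abundant called gene of the lists, with 1715, 1601 and 1733 FPKM in H and 999, 1030 and 1190 FPKM in SM. Its log2 fold change of -0.65 (SE 0.16, adjusted p = 0.0342) was not called without any 1 of the 6 libraries, with adjusted p from 0.0591 to 0.0955, and it was also lost without a filter (0.101) and after quantile normalization (0.0784). The expansin-like gene Solyc01g112000, of the proteins that loosen walls, was at 39.8, 89.6 and 83.5 FPKM in H and 26.6, 38.2 and 41.6 FPKM in SM, with a log2 fold change of -0.93 (SE 0.33, adjusted p = 0.0876). It was called only without H1, with an adjusted p of 0.0145. Cellulose synthase (Solyc12g056580), which makes cellulose chains, had 32.1, 30.0 and 44.3 FPKM in H and 27.7, 21.8 and 23.9 FPKM in SM, without overlap and without a call (log2 fold change -0.51, SE 0.17, adjusted p = 0.0707).

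Of 8 glycosyltransferase genes, 6 were tested and 2 were lower in SM, against 12.6% of all genes. Solyc02g087350, an enzyme that attaches sugars to acceptor molecules, was at 152, 211 and 206 FPKM in H and at 96.2, 110 and 114 FPKM in SM (log2 fold change -0.82, SE 0.15, adjusted p = 0.0129). Solyc02g089440 was at 37.5, 43.6 and 51.3 FPKM in H and at 21.3, 24.2 and 23.1 FPKM in SM (log2 fold change -0.92, SE 0.13, adjusted p = 0.00472). In both genes all SM libraries were below all H libraries, and both calls held without each library in turn.

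Of the 6 ethylene synthesis genes tested, 1 was called, lower in SM, a share of 16.7% against 21.1% of all genes. ACS2 (Solyc01g095080), an ACS gene known from ripening fruit, lies on chromosome 1 from 78214066 to 78216996. It was at 88.3, 83.1 and 76.9 FPKM in H1 to H3 and at 42.0, 34.1 and 34.1 FPKM in SM1 to SM3. The libraries of each variety were close together and far from those of the other, with means of 82.7 ± 5.70 and 36.7 ± 4.53 FPKM (SD, n = 3). The log2 fold change was -1.17 (SE 0.11, adjusted p = 0.00109), with adjusted p up to 0.00813 when each library was left out. When all 18 libraries shared 1 estimate of the spread, the adjusted p was 0.185. RSV at Acerra was at 77.8, 82.9 and 70.0 FPKM.

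The other ethylene synthesis genes were lower on average in SM without passing the test. ACS6 (Solyc08g081550) was at 44.4, 75.3 and 51.1 FPKM in H and at 34.0, 39.5 and 32.4 FPKM in SM, with a log2 fold change of -0.65 (SE 0.20, adjusted p = 0.0578, and 0.0450 without H1). The ACS gene Solyc00g095860 was at 28.1, 42.0 and 27.7 FPKM in H and 20.7, 25.4 and 21.2 FPKM in SM (log2 fold change -0.51, SE 0.18, adjusted p = 0.0875). Solyc08g079750, also described as an ACS, was at 6.17, 9.22 and 5.48 FPKM in H and 4.58, 4.99 and 3.98 FPKM in SM (log2 fold change -0.54, SE 0.20, adjusted p = 0.0963). The median of the 6 genes was -0.55, against -0.06 over all genes, and -0.50 after rescaling. All 6 values were below 0 as deposited, while 6154 of the 14097 genes tested had a value above 0. Of the ethylene response factors, which carry the signal to target genes, 3 of 5 were tested and 0 were called in limma. An unadjusted p under 0.05 was found in 1 of them. Over all 14097 genes, 21.1% were called and 5156 had an unadjusted p under 0.05. The ERF Solyc10g009110 was at 185, 316 and 339 FPKM in H and 113, 174 and 166 FPKM in SM (log2 fold change -0.86, SE 0.27, adjusted p = 0.0643, and 0.0244 without H1), with a locus of 1618 bases in H and 669 in SM. Solyc11g012980 had a log2 fold change of -0.54 (SE 0.47, adjusted p = 0.445). In the other direction, Solyc09g075420 was at 258, 346 and 513 FPKM in H and 503, 462 and 534 FPKM in SM. Its log2 fold change was 0.48 (SE 0.25, adjusted p = 0.206), and it was called in 1 of the 6 fits that left out a library.

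Transcription factors were called in both directions. Dof zinc finger protein 4 (Solyc02g090310), of a plant family of DNA-binding proteins, was at 64.6, 72.4 and 121 FPKM in H and at 31.6, 37.8 and 35.5 FPKM in SM. The log2 fold change was -1.23 (SE 0.23, adjusted p = 0.0133), and the gene was called without each library in turn. Opaque 2 (Solyc08g006110), a bZIP factor named after a maize regulator of seed storage proteins, was at 4.42, 3.77 and 3.58 FPKM in H and at 7.17, 8.56 and 6.84 FPKM in SM. Here all SM libraries were above all H libraries (log2 fold change 0.86, SE 0.14, adjusted p = 0.00761, and 0.0674 with all 18 libraries in the fit). The other 7 of the 9 tested genes in this list were not called, so the share called was 22.2%, near the 21.1% of all genes. The NAC-domain gene Solyc11g068620 was at 5.18, 7.53 and 16.2 FPKM in H and 13.6, 36.3 and 28.0 FPKM in SM (log2 fold change 1.43, SE 0.48, adjusted p = 0.0768). It was called without H3 and without SM1, with a lowest adjusted p of 0.0355.

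A heat stress transcription factor (Solyc08g080540) was at 33.1, 34.5 and 24 FPKM in H and at 41.0, 40.7 and 46.1 FPKM in SM. Its log2 fold change was 0.49 (SE 0.15, adjusted p = 0.0593), and after rescaling it was called, with an adjusted p of 0.0329. The only MYB gene of 5 that reached the minimum, Solyc07g053230, was at 11.5, 28.8 and 17.1 FPKM in H and 5.32, 10.4 and 8.92 FPKM in SM (log2 fold change -1.13, SE 0.36, adjusted p = 0.0676, and 0.0450 without H1). Of the 5 WRKY factors tested, a family tied to defence, 0 were called in limma and 0 had an unadjusted p under 0.05. Their log2 fold changes ranged from -0.52 to 1.29. Over all 14097 genes, 21.1% were called and 5156 had an unadjusted p under 0.05.

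Of the 7 genes of amino acid and amine metabolism tested, 1 was called, a share of 14.3% against 21.1% of all genes. Arginine decarboxylase, which turns arginine into agmatine, the start of the plant route to putrescine, is represented by a gene on chromosome 1 (Solyc01g110440, 88906364 to 88909922) and by one on chromosome 10 (Solyc10g054440, 50892437 to 50895032). The chromosome 1 gene was at 7.26, 10.8 and 11.4 FPKM in H1 to H3 and at 191, 99.8 and 81.0 FPKM in SM1 to SM3. The log2 fold change of 3.52 (SE 0.33, adjusted p = 0.000916) equals a fold of 11.5 on this scale, the locus had the same length of 3558 bases in both files, and the call held without each library in turn. RSV at Acerra was at 327, 81.1 and 107 FPKM, with every library above every H library. The chromosome 10 gene was at 75, 129 and 202 FPKM in H and at 101, 98.4 and 107 FPKM in SM, so the groups overlapped (log2 fold change -0.29, SE 0.32, adjusted p = 0.553). The 20-base primers that the study used for RT-qPCR of each gene are shown to identify the pair, each 5′ to 3′, and they bear on no value given here.
Solyc01g110440 forward: cgctgcagtggatagcattt
Solyc01g110440 reverse: tccatcactgtcacacgtca
Solyc10g054440 forward: ttcccgattgttcccatcca
Solyc10g054440 reverse: ataggttatggagtccgccg

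The other 5 tested genes of this list were not called either. In the phenylpropanoid and pigment list, 0 of the 3 genes tested were called in limma, against 21.1% of all genes. An unadjusted p under 0.05 was found in 0 of the 3, against 5156 of all 14097 genes. β-carotene hydroxylase 2 (Solyc03g007960), which turns β-carotene into xanthophylls, was at 43.2, 57.4 and 82.9 FPKM in H and 60.9, 50.7 and 58.9 FPKM in SM (log2 fold change -0.06, SE 0.23, adjusted p = 0.874). The 4-coumarate-CoA ligase-like gene Solyc06g035960, of the family that activates hydroxycinnamic acids, was at 32.4, 42.4 and 48.3 FPKM in H and 51.4, 46.4 and 53.6 FPKM in SM (log2 fold change 0.31, SE 0.15, adjusted p = 0.192).

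Defence genes differed in opposite directions. The chitinase Solyc07g009530, an enzyme that cleaves fungal cell wall chitin, was at 90.8, 39.3 and 16.8 FPKM in H and at 158, 160 and 257 FPKM in SM. The H libraries differed widely among themselves, and all were below the SM libraries (log2 fold change 2.24, SE 0.56, adjusted p = 0.0337). The log2 fold change was 2.84 without H1 and 1.64 without H3. The call was lost without H2, SM1, SM2 or SM3 (adjusted p from 0.0708 to 0.0979) and also without a filter (0.0609) and with all 18 libraries in the fit (0.238), and the annotated locus spans only 192 bases. The defensin Solyc07g007750, of the small antimicrobial peptides, was at 14.0, 16.1 and 52.2 FPKM in H and at 4.02, 3.63 and 3.94 FPKM in SM. It was 5.35-fold lower in SM on the fitted scale (log2 fold change -2.42, SE 0.46, adjusted p = 0.0145), and it was called without each library in turn. H3 was far above the other H libraries, and without it the log2 fold change was -1.83. A second chitinase, Solyc08g013670, was at 0.506, 0.757 and 0.574 FPKM in H and at 1.36, 0.933 and 1.44 FPKM in SM (log2 fold change 0.64, SE 0.19, adjusted p = 0.0574, and 0.0497 after rescaling).

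Receptor-like kinases sense signals at the cell surface, and 2 neighbours on chromosome 4 were higher in SM in Acerra at low levels. Solyc04g074020 was at 0.807, 1.07 and 1.72 FPKM in H and at 2.30, 4.01 and 3.25 FPKM in SM (log2 fold change 1.12, SE 0.26, adjusted p = 0.0269). Solyc04g074030 was at 0.494, 0.492 and 0.685 FPKM in H and at 1.17, 2.56 and 2.38 FPKM in SM (log2 fold change 1.22, SE 0.26, adjusted p = 0.0213). Their SM libraries were above all H libraries, and both calls were lost without H1, H2, SM2 or SM3, with adjusted p up to 0.0827 and 0.0721. In Sarno both were lower in SM and below the minimum, with means of 0.528 FPKM in H and 0.180 FPKM in SM for Solyc04g074020. For Solyc04g074030 these means were 0.369 and 0.119 FPKM. The limma differences between locations were 1.69 (SE 0.40, adjusted p = 0.196) and 1.71 (SE 0.36, adjusted p = 0.164), not past the threshold. The remaining 6 of 8 kinase and phosphatase genes tested were not called, so the share called was 25%, near the 21.1% of all genes. The 5 calmodulin and calcium genes were not called either. Their median was -0.56, and 2 of them had an unadjusted p under 0.05, against 5156 of all 14097 genes.

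Metabolic genes of the lists included large differences that were widest in SM1 and SM3. The gene for a chloroplast photosystem II-associated protein (Solyc06g060340) was at 0.374, 2.22 and 1.98 FPKM in H and at 60.2, 7.55 and 42.8 FPKM in SM (log2 fold change 3.94, SE 0.80, adjusted p = 0.0178). Fructose-bisphosphate aldolase (Solyc02g062340), an enzyme of glycolysis and the Calvin cycle, was at 0.376, 0.466 and 0.746 FPKM in H and at 13.7, 1.57 and 11.5 FPKM in SM (log2 fold change 2.80, SE 0.70, adjusted p = 0.0331). In both genes SM2 was the lowest SM library and still above every H library, and RSV at Acerra had means of 0.591 and 0.315 FPKM. Without SM2 the log2 fold changes rose to 4.83 for the photosystem gene and 3.68 for the aldolase gene, and their lowest values without 1 library were 3.37 and 2.29. The photosystem gene was not called without H1 or SM3 (adjusted p of 0.0513 and 0.0598), and the aldolase gene was called only without SM2, with an adjusted p of 0.000503, and had adjusted p from 0.0629 to 0.0967 without another library and 0.0606 without a filter.

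A cytochrome P450 (Solyc10g080840), of the oxidases of specialised metabolism, was at 5.93, 10.4 and 8.80 FPKM in H and at 44.8, 13.0 and 31.9 FPKM in SM (log2 fold change 1.64, SE 0.44, adjusted p = 0.0404). In Sarno this gene had the opposite sign (log2 fold change -0.65, SE 0.46, adjusted p = 0.497). Its difference between locations was 2.29 (SE 0.71, adjusted p = 0.269). Its locus spanned 13075 bases in H and 2417 in SM, and it was called in 1 of the 6 fits that left out a library, that without SM2 (adjusted p = 0.00723), with values from 0.0788 to 0.111 in the others and 0.0709 without a filter on low values. The mitochondrial 2-oxoglutarate/malate carrier (Solyc05g051400), which exchanges organic acids across the inner membrane, was at 78.9, 117 and 65.1 FPKM in H and at 30.5, 49.8 and 37.9 FPKM in SM (log2 fold change -1.12, SE 0.25, adjusted p = 0.0253). Its locus spanned 5033 bases in H and 1254 in SM, and the call was lost without H1, H2, SM1 or SM3 (adjusted p from 0.0590 to 0.0727) and with all 18 libraries in the fit (0.146). The aspartic proteinase nepenthesin I (Solyc05g051240), named after a digestive protease of pitcher plants, was at 141, 274 and 244 FPKM in H and at 39.2, 73.5 and 67.7 FPKM in SM. It was lower in all SM libraries, with a log2 fold change of -1.85 (SE 0.32, adjusted p = 0.0104), and it was called without each library in turn. A gene described only as an unknown protein, Solyc01g087580, was at 595, 449 and 374 FPKM in H and 154, 292 and 251 FPKM in SM (log2 fold change -1.05, SE 0.28, adjusted p = 0.0385), and its call was lost without H1, H2, SM1 or SM3 (adjusted p from 0.0723 to 0.103), without a filter (0.0657) and with all 18 libraries in the fit (0.198).

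**Figure D4:**
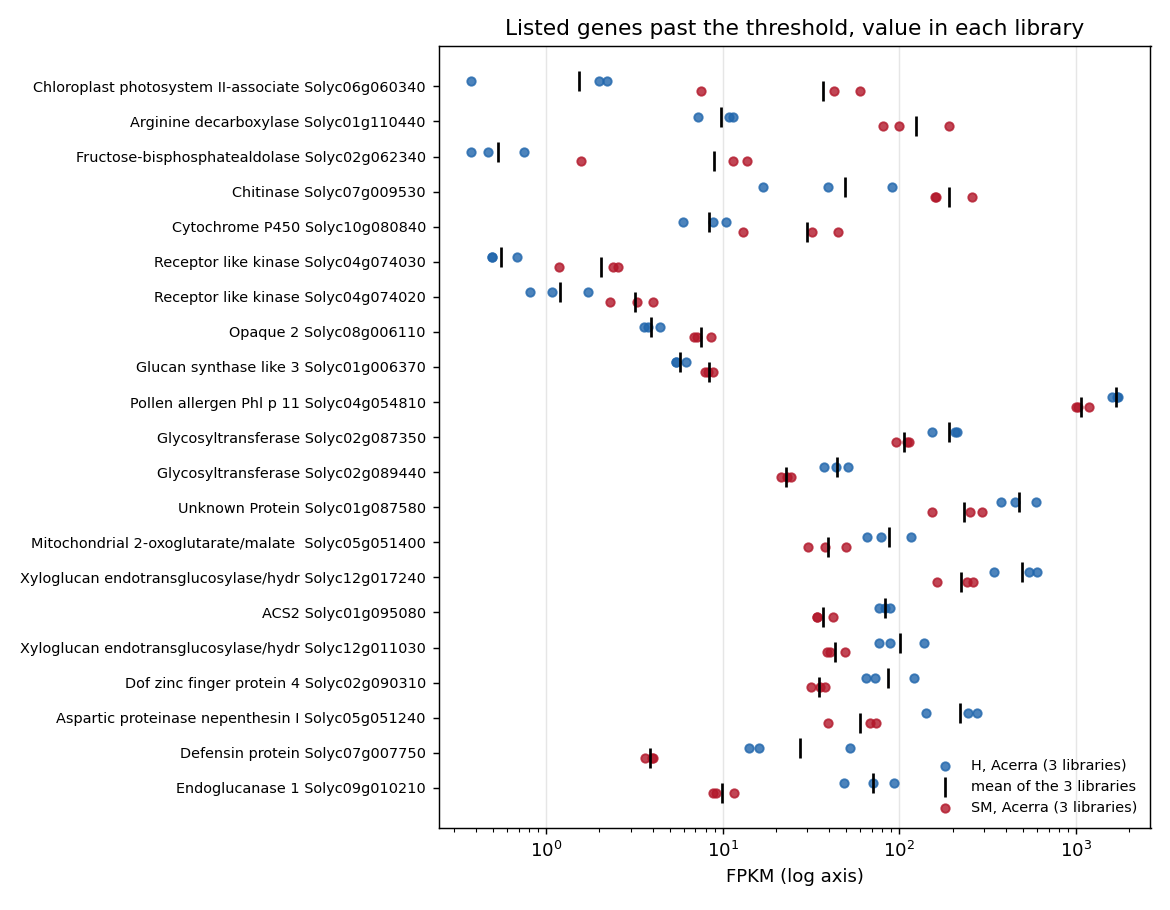
FPKM in each of the 6 Acerra libraries (log axis) for the 21 listed genes that were called, ordered by log2 fold change, with H in blue, SM in red and black ticks at the means of 3 libraries. In none of these genes do the 2 colours overlap, from endoglucanase 1 at the bottom (H 48.6 to 92.8 FPKM, SM 8.84 to 11.6 FPKM) to the photosystem II-associated gene at the top (H 0.374 to 2.22 FPKM, SM 7.55 to 60.2 FPKM).

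Some of the largest differences over all genes lay outside the lists, in genes for which no description was used here. Solyc09g055470 (chromosome 9, 36732668 to 36733088) was at 0.204, 0.0116 and 0.796 FPKM in H and at 299, 294 and 365 FPKM in SM (log2 fold change 8.68, SE 0.32, adjusted p = 1.35e-05). Solyc06g076580 (chromosome 6, 43933251 to 43954838) was at 4.12, 7.98 and 5.45 FPKM in H and at 1036, 590 and 916 FPKM in SM (log2 fold change 7.07, SE 0.28, adjusted p = 1.84e-05), but its locus spanned 21587 bases in H and 1137 in SM. Both had the same direction in Sarno, and RSV at Acerra had means of 288 FPKM for Solyc09g055470 and 814 FPKM for Solyc06g076580. In the other direction, Solyc09g050120 (chromosome 9, 32310683 to 32310899) was at 106, 92.2 and 129 FPKM in H and at 0, 0 and 0.157 FPKM in SM (log2 fold change -7.63, SE 0.17, adjusted p = 1.80e-06). Solyc11g010280 (chromosome 11, 3354457 to 3357560) was at 211, 258 and 323 FPKM in H and at 0.569, 1.32 and 4.90 FPKM in SM (log2 fold change -6.89, SE 0.55, adjusted p = 0.000455, and -7.54 without SM3). RSV at Acerra was listed at 0 in all its libraries for Solyc09g050120 and had a mean of 16.1 FPKM for Solyc11g010280.

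Genes listed at 0 in all libraries of a variety need separate reading, because a 0 in these files can be a failed estimate or an effect of how loci were joined in that assembly. In SM, 98 of the genes tested were at 0 in all 3 libraries, of which 19 had a mean of at least 10 FPKM in H and 5 at least 100. In H, 38 genes were at 0 in all 3 libraries, of which 8 had a mean of at least 10 FPKM in SM and 2 at least 100. The same gene was also at 0 in all Sarno libraries of the variety in 75 of the 98 and 30 of the 38. Locus lengths differed by more than 1.5 times in 35 of the 98 and 20 of the 38 genes. The test called 82 and 33 of them, and without these genes 2830 calls remained.

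The most abundant of them was Solyc07g049140 (chromosome 7, 56690994 to 56692596), at 7215, 11829 and 8025 FPKM in H and listed at 0 in SM1 to SM3. It was also listed at 0 in the 3 SM libraries from Sarno, while RSV at Acerra had 6049 to 8818 FPKM, and its locus had 1602 bases in both the H and SM files. Solyc00g011160 was at 679, 713 and 736 FPKM in H and listed at 0 in SM, with a locus of 276468 bases in H and 280 in SM. RSV at Acerra was also listed at 0 for this gene. In the other direction, Solyc11g027650 was listed at 0 in H and was at 3165, 648 and 1711 FPKM in SM, and Solyc06g024230 was listed at 0 in H and was at 839, 298 and 594 FPKM in SM. Their loci spanned 145006 bases in H and 142963 in SM for Solyc11g027650, and 198 and 5475 bases for Solyc06g024230. RSV at Acerra was listed at 0 for Solyc11g027650 and had no matched value for Solyc06g024230. Folds against a group listed at 0 are left out.

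The called genes were spread over all chromosomes. The share called ranged from 17.3% of 1025 genes on chromosome 7 to 22.5% on chromosomes 5 and 12, and was 26.2% of the 107 genes on the unplaced sequences of chromosome 0. On each chromosome more genes were higher in H than in SM. Over 285 windows of 1 Mb with at least 10 tested genes, the median share called was 21%, with quartiles of 16.1% and 25%. Among the 160 windows with at least 40 tested genes, the share ran from 4.55% (3 of 66 genes, chromosome 2 from 38000001 to 39000000) to 35.4% (17 of 48 genes, chromosome 4 from 59000001 to 60000000). These shares are descriptions, since neighbouring genes are not independent.

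The same contrast in Sarno gave fewer calls, with 597 of 14331 genes called (4.17%). The median standard error was 0.15 in Acerra and 0.19 in Sarno. Of the 2910 genes called in Acerra and also tested in Sarno, 2509 (86.2%) had the same direction in Sarno, against 62.7% of the 10853 genes that were not called in Acerra, and 438 were called in both with the same direction. The median size of the log2 fold change of these 2910 genes was 0.74 in Acerra, where they were selected, and 0.45 in Sarno. The test of the difference between locations, over 12 libraries, called 12 of 14321 genes (0.0838%), and 1667 had an unadjusted p under 0.05. Of the listed genes 0 were called in this test, and of the 90 with a value in it 19 had an unadjusted p under 0.05.

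Among the listed genes called in Acerra, endoglucanase 1 was also called lower in SM in Sarno, with a log2 fold change of -2.36 (SE 0.45, adjusted p = 0.0401). Listed genes not called in Acerra were called in Sarno too. Lower in SM were the decarboxylases Solyc08g068600 (-3.37, adjusted p = 0.00450), Solyc08g068680 (-2.97, 0.0292) and Solyc08g068610 (-2.27, 0.0395). So was the receptor-like kinase Solyc06g008300 (-2.36, adjusted p = 0.000977), with a locus of 3932 bases in H and 30003 in SM. The ERF Solyc09g075420 was higher in SM (1.92, adjusted p = 0.0183). ACS2 had -1.70 in Sarno (SE 0.55, adjusted p = 0.164) and arginine decarboxylase Solyc01g110440 had 1.86 (SE 0.54, adjusted p = 0.126), both in the direction of Acerra. Dof zinc finger protein 4 had means of 16.6 FPKM in H and 28.4 FPKM in SM in Sarno (log2 fold change 0.78, SE 0.17, adjusted p = 0.0651), opposite to Acerra, and the difference between locations was -2.01 (SE 0.31, adjusted p = 0.0522). The defensin also had the opposite sign in Sarno (log2 fold change 0.95, SE 0.39, adjusted p = 0.257), and the difference between locations was -3.37 (SE 0.65, adjusted p = 0.147). The photosystem II-associated gene was at 60.4 FPKM in H and 56.6 FPKM in SM in Sarno on average (log2 fold change 0.05, SE 0.56, adjusted p = 0.973), and its difference between locations was 3.88 (SE 1.09, adjusted p = 0.252). None of the last 3 differences between locations passed the threshold. Nor did those of Solyc08g068600 (2.67, SE 0.51, adjusted p = 0.147) and Solyc08g068680 (2.73, SE 0.62, adjusted p = 0.179). The 4-coumarate-CoA ligase-like gene Solyc06g035960 had the opposite sign in Sarno (-1.55, SE 0.33, adjusted p = 0.0566). Its difference between locations was 1.86 (SE 0.39, adjusted p = 0.164).

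**Figure D5:**
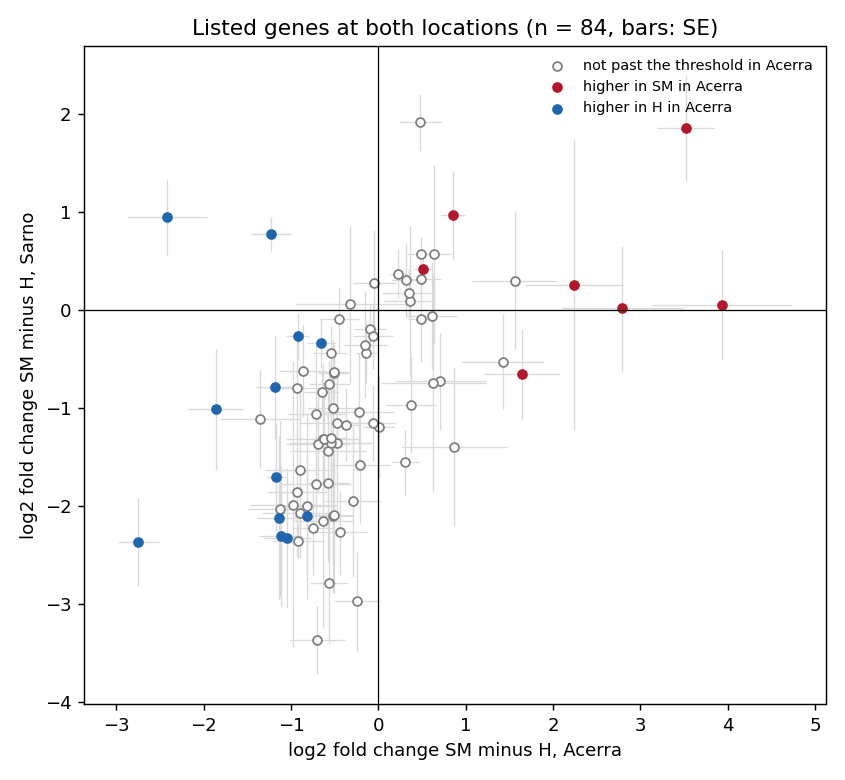
Log2 fold change of SM against H in Sarno (vertical axis) against that in Acerra (horizontal axis) for the listed genes tested at both locations, with bars of 1 SE in each direction. Endoglucanase 1 lies at the far lower left (-2.75 and -2.36), while the defensin (-2.42 and 0.95) and Dof zinc finger protein 4 (-1.23 and 0.78) are the filled blue points above the horizontal line.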

How the data were processed

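Libraries were made with a TruSeq RNA kit and sequenced as paired ends by the authors. Per the labels, CASAVA 1.8.2, TopHat2 2.0.6 and Cufflinks 2.1.1 were used. H reads were aligned to the reference genome (SL2.40) and SM reads to the SM assembly, and Cufflinks ran with annotation-guided assembly and multi-read correction. The deposited values are FPKM per locus and library, written by the authors with decimal commas that were read as points. They hold no counts, so precision comes from the 3 libraries of a group, and no interval was computed for a single value.

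Genes were matched by an identifier that stood alone at 1 locus in each file. log2(FPKM + 0.5) was fitted over the libraries of the compared groups with limma 3.58.1 in R 4.3.3 (lmFit, eBayes with trend), for genes with a mean of at least 0.5 FPKM, with a Benjamini-Hochberg threshold of 0.05. The difference between locations was a contrast over the 12 libraries of H and SM. Python 3.11.15, numpy 2.4.6, pandas 2.3.3 and matplotlib 3.10.9 were used for tables and plots. Tested on simulated data of the Acerra comparison (13948 genes), the fit recovered 63 of 100 genes changed by a log2 fold change of 1 and 83 of 100 changed by 2, with 6 false calls. The simulated noise was drawn independently for each gene, without shifts of whole libraries or differences of assembly. The 6 false calls therefore do not estimate those among the 2979 calls in Acerra.

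The comparison, the lists and the alternatives were chosen with earlier results of these data known. Named genes are those the study describes by name, in full where called and without overlap. In addition, the 2 genes with the largest log2 fold change in each direction are named among called genes with no description used here, a mean of at least 1 FPKM, no overlap and no variety at 0, and the 2 genes with the highest mean among those at 0 in each variety. The listed genes that are given in full without a call, and those named for their difference between locations, were chosen after their values were seen. Gene names and primers are the study's, since the RefSeq table used here gives no Solyc identifiers. Alternatives were other pseudocounts, filters, scalings, variance models, a replicate block, a minimum fold change, all 18 libraries in 1 fit, gene subsets and the omission of each library. Values of RSV at Acerra were set beside those of SM and H without a test, because a comparison of RSV with H would reuse the H libraries.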

Additional observations from a re-analysis of the deposited data

Results flagged for a closer look

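The SM against H difference itself differed between Acerra and Sarno in 12 genes by limma's test of the difference (adjusted p under 0.05), where SM minus H was more positive in Acerra than in Sarno in 8 and more negative in 4. In 5 of the 12, the gene was listed at 0 in all 3 SM libraries from Sarno, while its SM mean in Acerra was between 927 and 3765 FPKM, so these 5 rest on values of 0 that can be failed estimates, and none of them differed between SM and H in Acerra beyond the threshold.

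The other 7 rest on values above 0 in at least part of the libraries of each group. Of these, Solyc01g099180 was close to 0 outside SM in Sarno and below the minimum in Acerra. It had at most 0.160 FPKM in the Acerra libraries and 0.0479 FPKM in H in Sarno, against 6.68, 2.85 and 3.05 FPKM in SM in Sarno. Solyc12g017230 was at 10.9, 13.4 and 10.9 FPKM in H and at 73.8, 84.7 and 94.2 FPKM in SM in Acerra, against 12.4, 15.7 and 18 FPKM in H and 21.7, 21.1 and 26.7 FPKM in SM in Sarno. Its log2 fold change was 2.79 in Acerra and 0.58 in Sarno, a difference of 2.20 (SE 0.22, adjusted p = 0.00224). Solyc06g009950 turned direction, at 14.7, 8.54 and 4.86 FPKM in H and 0.887, 0 and 0.596 FPKM in SM in Acerra, against 0.468, 0.689 and 0 FPKM in H and 5.28, 10.5 and 9.72 FPKM in SM in Sarno. The difference between the locations was -6.69 (SE 0.69, adjusted p = 0.00262). These genes were chosen for mention after their values were seen, and no description of them was used here.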

How the results depend on the processing

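The calls in Acerra (2979) ranged from 2699 to 2982 under the other pseudocounts, filters, scalings and variance models and with all 18 libraries in 1 fit, and were 2830 without genes at 0 in 1 variety and 2170 with locus lengths within 5%. They were 1005 with a minimum log2 fold change of 1, and 1396 to 2529 when each library was left out. Whether libraries of the same replicate number share a plot is not stated. Same-numbered deviations correlated at -0.07, 0.12 and -0.16, against -0.20 to 0.24 for libraries of different numbers. These few values show no pairing over the genes but cannot exclude a shared plot. With a replicate block the calls were 1761 in Acerra, 196 in Sarno and 32 of the listed genes (21 without it), since 5 lost and 16 gained a call. Those lost were Solyc01g006370, Solyc04g054810, Solyc07g009530, Solyc10g080840 and Solyc01g087580, with adjusted p from 0.0644 to 0.112 in limma with the block. Those gained included genes given above as not called. With the block, limma gave adjusted p of 0.0389 for the XTH Solyc03g093130, 0.0238 for expansin-like Solyc01g112000 and 0.0434 for ACS6 (Solyc08g081550). It gave 0.0198 for the ERF Solyc10g009110, 0.0133 for the MYB gene Solyc07g053230 and 0.0358 for the NAC-domain gene Solyc11g068620. In Sarno, 597 calls became 1835 with all 18 libraries in 1 fit, 320 with locus lengths within 5%, and 216 to 438 when each library was left out. The 12 differences between locations became 23 without a filter, 40 with all 18 libraries in 1 fit, and 8 to 23 without each library in turn. The 21 listed calls became 11 to 21 when each library was left out.

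Of 25 called named genes, 12 kept their call and direction under every alternative run on them other than leaving out a library. Direction turned only in genes that were not called. Arginine decarboxylase Solyc10g054440 ranged from -0.66 to 0.053 when each library was left out, above 0 only without H replicate 3. β-carotene hydroxylase 2 (Solyc03g007960) had 6.14e-05 after rescaling and 0.050 after quantile normalization, and ranged from -0.28 to 0.18 when each library was left out, above 0 without H replicate 3 (0.18) and without SM replicate 2 (0.020). The causes were not tested. Limits of low values from the read depth were not computed.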
